A study of Mus musculus with 5 samples.

Results

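Amino acid transporters of the solute carrier families SLC1, SLC3, SLC6, SLC7, SLC36, SLC38 and SLC43 were examined in mouse liver 6 hr after troglitazone or rosiglitazone. The members were all array probes other than controls whose gene name is Slc1a, Slc3a, Slc6a, Slc7a, Slc36a, Slc38a or Slc43a followed by a number, with the cystine transporter Slc7a11 left out. This gave 60 genes on 108 probes, of 36870 gene names on 56605 probes. Female BALB/c mice aged 6 weeks were dosed intraperitoneally, and their livers were taken 6 hr later. The BSO+TGZ group received 700 mg/kg buthionine sulfoximine (BSO) with 300 mg/kg troglitazone (TGZ). The TGZ group received 300 mg/kg troglitazone alone. The BSO+RGZ group received 700 mg/kg BSO with 300 mg/kg rosiglitazone (RGZ), and the RGZ group 300 mg/kg rosiglitazone alone. The Vehicle group received vehicle. No group received BSO alone. Both drugs are thiazolidinediones, ligands of the nuclear receptor PPAR gamma. Troglitazone carries a chroman group like that of vitamin E, where rosiglitazone carries an aminopyridine side chain. BSO blocks glutathione synthesis. The title of the series concerns liver injury caused by troglitazone. RNA of 6 animals was pooled to 1 sample per group and hybridised to 1 single-colour array, so no difference below was tested and no p-value exists.

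Hepatocytes take up amino acids from portal blood through sodium-coupled carriers, proton-coupled carriers and exchangers, and return them through facilitative carriers. Several exchangers are heterodimers, in which an SLC3 heavy subunit brings an SLC7 light subunit to the membrane. Cells short of amino acids raise some of these carriers through the transcription factor ATF4, and lysosomal members report the amino acid supply to the kinase complex mTORC1. The SLC6 family also holds carriers of taurine, creatine, betaine, GABA and monoamines, which are counted among the members because the family name selected them.

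Values are log2 signals scaled to each array's 75th percentile, here called scaled log2 signals, of each gene's brightest probe by its mean on the 5 arrays. They compare arrays within a probe and do not rank genes. Ranges in brackets after a fold are its 95% interval from spot measurement error alone, which leaves out variation between animals, pools and labelling reactions. A member was counted as different at 2-fold or more. On each array 51.9% to 55.1% of probes passed the scanner software's test for a signal well above background, and no spot was saturated. All 10 hepatocyte marker genes were well above background on every array, albumin among them, with a summed scaled signal of 13.11 to 13.59 on the log2 scale. In whole liver RNA, fewer cells of a type and less RNA per cell cannot be told apart.

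Of the 60 members, 40 were well above background on all 5 arrays, 4 on some arrays and 16 on none. The 4 were Slc1a6, Slc38a5, Slc6a4 and Slc7a6. The 16 below background everywhere were the glutamate transporters Slc1a1 and Slc1a3, Slc36a3, Slc38a11, the cationic transporter Slc7a3, the light subunits Slc7a9, Slc7a12 and Slc7a13, and 8 members of SLC6. Those 8 include the kidney and gut carriers Slc6a18 and Slc6a19, the noradrenaline carrier Slc6a2 and the dopamine carrier Slc6a3, the glycine carrier Slc6a5, the GABA carrier Slc6a11, and Slc6a14 and Slc6a15. For these 16 genes no difference or bound between arrays is given. Among the 40 measured everywhere, 29 spanned less than 1 log2 unit over the 5 arrays and 11 spanned 1 or more, with a median range of 0.77. Some of the 40 rest on the probe shown alone, with every other probe of the gene below background on all arrays. These are Slc1a2, Slc36a2, Slc38a8, Slc6a7, Slc6a17, Slc7a8, Slc7a10, Slc7a14 and Slc7a15.

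Against Vehicle, 5 of the 43 members with a value were at least 2-fold higher and 3 were at least 2-fold lower with BSO+TGZ, where 8.28% of all gene names were higher and 5.88% lower. With TGZ, 6 of 42 members were higher and 4 lower, against 10.0% and 9.45% of all gene names. With BSO+RGZ 2 of 43 were higher and 0 lower, against 3.01% and 3.74%. With RGZ 1 of 41 was higher and 0 lower, against 1.61% and 1.66%. These shares lie near those of all genes, so the transporters as a set did not stand out and the description turns on single genes. The members' median log2 difference was 0.01 with BSO+TGZ, 0.18 with TGZ, -0.11 with BSO+RGZ and 0.02 with RGZ, beside medians of -0.03, 0.03, -0.04 and -0.04 over all measured genes. All 4 comparisons share the Vehicle array, so a difference common to them is not an independent repeat. The heat map of differences from Vehicle shows the members gene by gene.

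**Figure D1:**
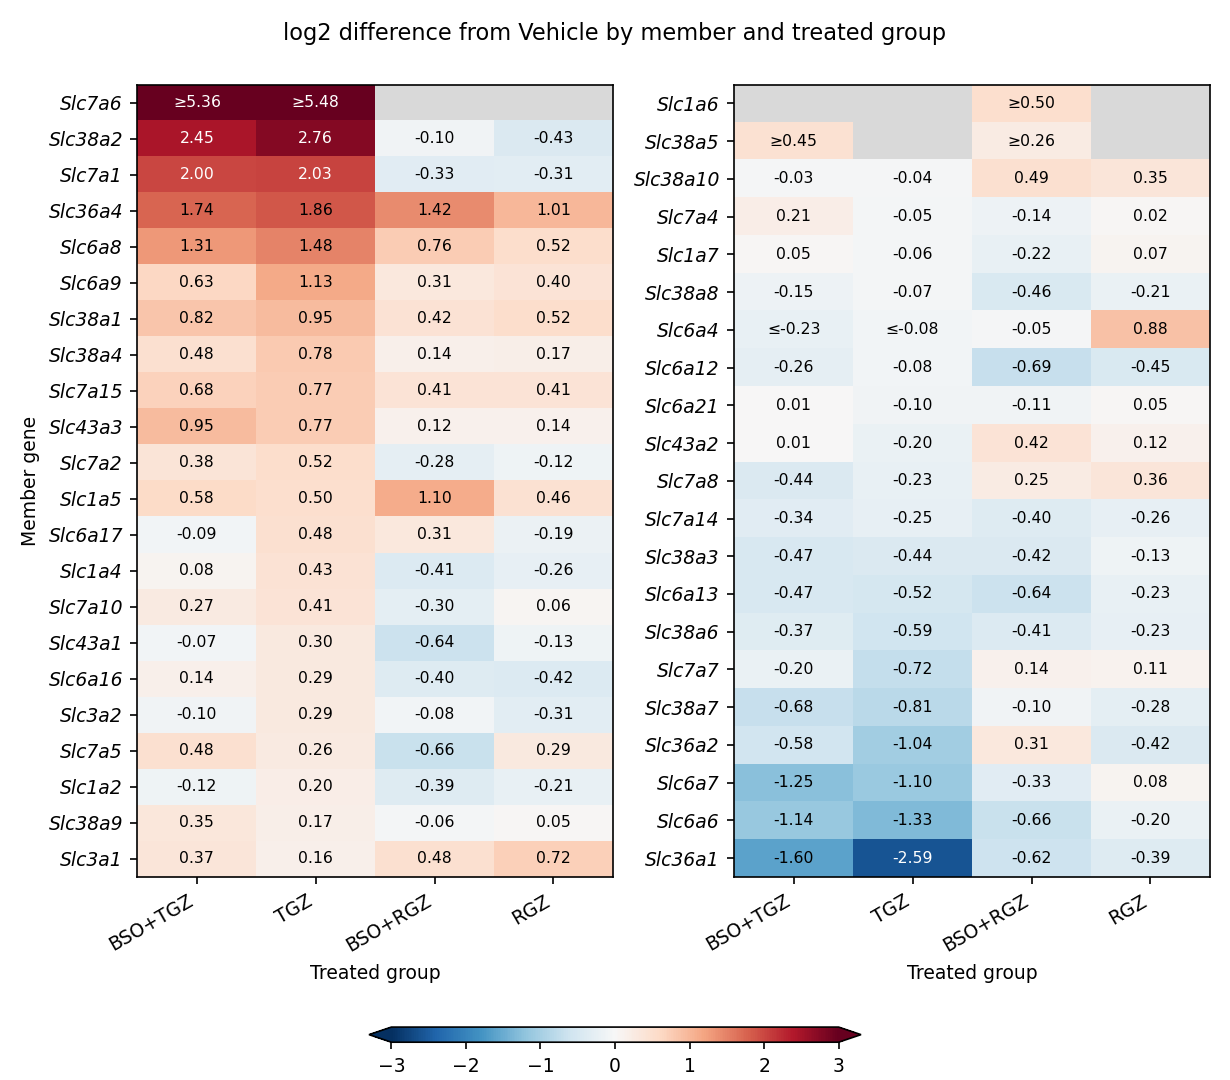
log2 difference from Vehicle of the members shown, with 1 row per gene and 1 column per treated group, ordered by the TGZ value. Red is higher and blue lower than Vehicle, grey cells have no value, and ≥ or ≤ marks a bound for a gene well above background on 1 of the 2 arrays. The colour is deepest for Slc7a6, Slc38a2 and Slc7a1 in the BSO+TGZ and TGZ columns and for Slc36a1 in the other direction.

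The heterodimeric exchangers held the largest difference. Slc7a6 encodes y+LAT2, a light subunit that pairs with the heavy subunit Slc3a2 and exchanges cationic for neutral amino acids. Its scaled log2 signal was 1.20 with BSO+TGZ, 1.32 with TGZ, -4.55 with BSO+RGZ, -5.35 with RGZ and -4.71 with Vehicle. It was well above background on both troglitazone arrays and on none of the other 3. Against the detection floor of the Vehicle array it was at least 41.1-fold higher with BSO+TGZ and at least 44.6-fold higher with TGZ. The second probe of the gene was also well above background on the troglitazone arrays and on no other, with scaled log2 signals of -2.70 with BSO+TGZ, -3.20 with TGZ, -6.24 with BSO+RGZ, -6.33 with RGZ and -6.16 with Vehicle. Against the Vehicle floor that dimmer probe gave smaller bounds, 1.46 with BSO+TGZ and 0.96 with TGZ on the log2 scale. With another background correction the bound was smaller, a log2 difference of 2.81 with BSO+TGZ and 2.87 with TGZ. Both probes lie on chromosome 8 (build mm9), the brighter at chr8:108721796-108721855. The neighbouring gene Slc7a6os did not follow, at 1.00 with BSO+TGZ, 0.75 with TGZ, 1.55 with BSO+RGZ, 1.38 with RGZ and 1.09 with Vehicle.

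**Figure D2:**
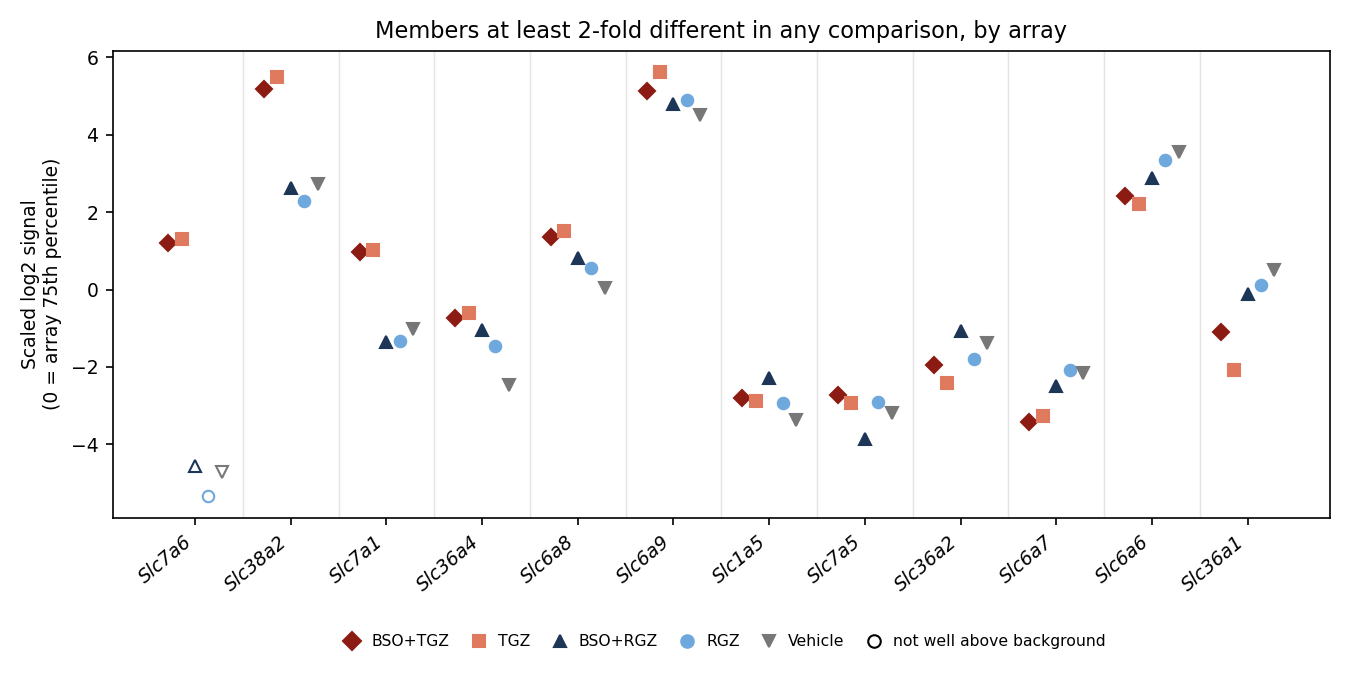
Scaled log2 signal (0 is the array's 75th percentile) on each of the 5 arrays for the 12 members that were at least 2-fold different in any comparison, ordered by the TGZ to Vehicle difference. Each point is 1 array, and open points are not well above background. Slc7a6, Slc38a2 and Slc7a1 have both troglitazone points set apart above the other 3, and Slc36a1 and Slc6a6 have them below.

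Slc3a2, the heavy subunit 4F2hc that partners Slc7a6 and Slc7a5, gave different answers on its 3 probes. The probe shown by the rule was 3.95 with BSO+TGZ, 4.34 with TGZ, 3.96 with BSO+RGZ, 3.74 with RGZ and 4.05 with Vehicle, which is a log2 difference from Vehicle of -0.10 with BSO+TGZ and 0.29 with TGZ. A second probe had 4.81 with BSO+TGZ, 4.95 with TGZ, 3.39 with BSO+RGZ, 3.39 with RGZ and 3.48 with Vehicle, a log2 difference of 1.33 with BSO+TGZ and 1.47 with TGZ. The third probe differed by 1.06 with BSO+TGZ and 1.57 with TGZ. The first and second probes had almost the same mean over the arrays, 4.008 and 4.004, so the choice between them rests on a very small difference. On 2 of 3 probes Slc3a2 was thus more than 2-fold higher in both troglitazone groups, and on the third it was not. No probe of Slc3a2 passed 2-fold in a rosiglitazone group.

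Slc7a5 encodes LAT1, the main importer of large neutral amino acids into growing cells. Its scaled log2 signal was -2.72 with BSO+TGZ, -2.94 with TGZ, -3.86 with BSO+RGZ, -2.91 with RGZ and -3.20 with Vehicle, so the BSO+RGZ array was the lowest and no treated group passed 2-fold against Vehicle. Slc7a7, y+LAT1, the partner exchanger of intestine and kidney, was 0.68 with BSO+TGZ, 0.17 with TGZ, 1.03 with BSO+RGZ, 1.00 with RGZ and 0.89 with Vehicle, with the TGZ array lowest. Slc7a8, LAT2, differed from Vehicle by -0.44 with BSO+TGZ, -0.23 with TGZ, 0.25 with BSO+RGZ and 0.36 with RGZ on the log2 scale. Slc7a10, the small neutral exchanger Asc-1, and Slc7a15 stayed within 0.77 log2 units of Vehicle in every group. The other heavy subunit, Slc3a1, which carries the cystine exchanger Slc7a9 in kidney, was highest with RGZ, with log2 differences of 0.37 with BSO+TGZ, 0.16 with TGZ, 0.48 with BSO+RGZ and 0.72 with RGZ. Its partner Slc7a9 was below background on all arrays.

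**Figure D3:**
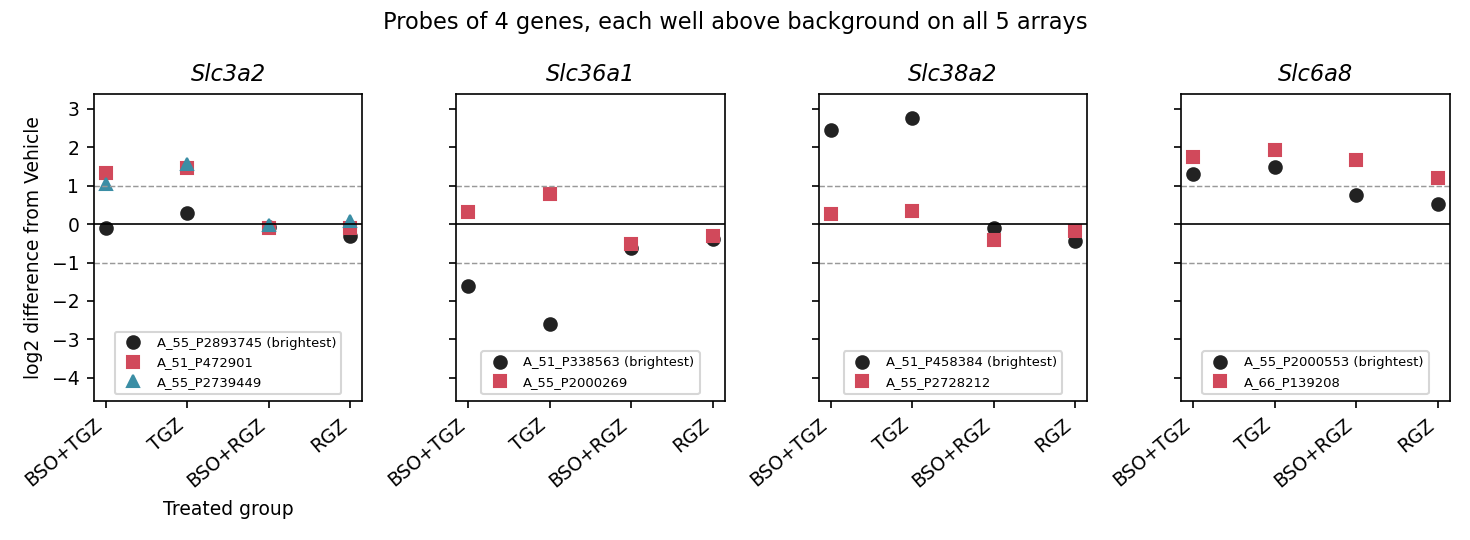
log2 difference from Vehicle of every probe of 4 genes whose probes are all well above background on all 5 arrays, by treated group. Each symbol is 1 probe, black for the brightest, and dashed lines mark 2-fold. Probes of Slc6a8 lie on the same side of 0, those of Slc36a1 on opposite sides in the BSO+TGZ and TGZ columns, and the brightest Slc3a2 probe near 0 where the other 2 are above 1.

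Of the cationic amino acid transporters, Slc7a1 was higher in both troglitazone groups and no other member passed 2-fold. Slc7a1 encodes CAT1, the arginine and lysine importer that adult liver normally holds at a low level and that ATF4 raises in starved cells. The scaled log2 signal of Slc7a1 was 0.98 with BSO+TGZ, 1.01 with TGZ, -1.35 with BSO+RGZ, -1.33 with RGZ and -1.02 with Vehicle. The troglitazone arrays lay together above the other 3. Slc7a1 was 3.99-fold higher with BSO+TGZ (3.01 to 5.29) and 4.09-fold higher with TGZ (3.08 to 5.42) than with Vehicle. Slc7a2, CAT2, the lower-affinity arginine carrier of hepatocytes, had 3.03 with BSO+TGZ, 3.17 with TGZ, 2.38 with BSO+RGZ, 2.53 with RGZ and 2.65 with Vehicle, in the same order but under 2-fold. Slc7a4 and Slc7a14 were within 0.40 log2 units of Vehicle in all 4 groups.

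Among the sodium-coupled neutral amino acid transporters of SLC38, Slc38a2 was the one past 2-fold on the probe shown. It encodes SNAT2, the carrier of alanine, glutamine and other small neutral amino acids that cells raise under amino acid shortage and osmotic stress. Slc38a2 had a scaled log2 signal of 5.18 with BSO+TGZ, 5.49 with TGZ, 2.63 with BSO+RGZ, 2.29 with RGZ and 2.73 with Vehicle. It was 5.46-fold higher with BSO+TGZ (4.14 to 7.21) and 6.79-fold higher with TGZ (5.14 to 8.95) than with Vehicle, while both rosiglitazone arrays lay below Vehicle. The probe, at chr15:96518491-96518550 (mm9), carries this result alone. A second, dimmer probe of the gene, designed on another transcript record, differed by 0.26 with BSO+TGZ and 0.35 with TGZ on the log2 scale.

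Slc38a1, SNAT1, was next in the family, with -0.95 with BSO+TGZ, -0.83 with TGZ, -1.35 with BSO+RGZ, -1.25 with RGZ and -1.77 with Vehicle. On that probe all 4 treated arrays were above Vehicle, and the TGZ array was 1.93-fold above it. Another Slc38a1 probe, well above background on all arrays, gave log2 differences of 0.24 with BSO+TGZ, -0.55 with TGZ, -0.45 with BSO+RGZ and -0.42 with RGZ, so the direction depended on the probe in 3 of the 4 groups. Slc38a4, SNAT4, an abundant liver carrier of neutral and cationic amino acids that is imprinted in mouse, had 8.06 with BSO+TGZ, 8.36 with TGZ, 7.72 with BSO+RGZ, 7.75 with RGZ and 7.58 with Vehicle. That probe put Slc38a4 0.48 log2 units above Vehicle with BSO+TGZ and 0.78 with TGZ, and its second probe put it 1.14 and 1.30 units above. Slc38a3, SNAT3, the glutamine carrier of hepatocytes, lay a little below Vehicle in all treated groups, with log2 differences of -0.47 with BSO+TGZ, -0.44 with TGZ, -0.42 with BSO+RGZ and -0.13 with RGZ. The lysosomal glutamine exporter Slc38a7 was lowest on the troglitazone arrays, -0.25 with BSO+TGZ and -0.37 with TGZ, against 0.33 with BSO+RGZ, 0.15 with RGZ and 0.44 with Vehicle. Slc38a9, the lysosomal arginine sensor of mTORC1, stayed within 0.35 log2 units of Vehicle on the probe shown, and its second probe gave -0.38 with BSO+TGZ and -0.55 with TGZ, where the first gave 0.35 and 0.17. Slc38a6, Slc38a8 and Slc38a10 differed by 0.59 units or less on the probes shown, and Slc38a6 by -0.77 with BSO+TGZ on another. A further, dim Slc38a6 probe was -3.48 with BSO+RGZ, -3.11 with RGZ and -3.23 with Vehicle. It was below background on both troglitazone arrays, whose floors were -4.06 with BSO+TGZ and -3.92 with TGZ. Slc38a5, SNAT5, was above background with BSO+TGZ and BSO+RGZ and with neither compound alone nor Vehicle, just over the floor, with bounds against the Vehicle floor of 0.45 with BSO+TGZ and 0.26 with BSO+RGZ on the log2 scale.

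The proton-coupled SLC36 family differed in both directions. Slc36a4, PAT4, a high-affinity carrier of proline and tryptophan, was higher in every treated group. Its scaled log2 signal was -0.74 with BSO+TGZ, -0.61 with TGZ, -1.05 with BSO+RGZ, -1.47 with RGZ and -2.47 with Vehicle. The Vehicle array was the lowest, and Slc36a4 was 3.33-fold higher with BSO+TGZ, 3.64-fold with TGZ, 2.67-fold with BSO+RGZ and 2.01-fold with RGZ. These 4 differences rest on 1 dim probe and 1 Vehicle array, and with another background correction all were under 2-fold, at 0.85, 0.97, 0.62 and 0.37 on the log2 scale in the same order of groups.

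Slc36a1, PAT1, which moves small amino acids with protons out of lysosomes and bears on mTORC1 activity, went the other way on its brighter probe. That probe had -1.09 with BSO+TGZ, -2.07 with TGZ, -0.10 with BSO+RGZ, 0.13 with RGZ and 0.52 with Vehicle, so all treated arrays lay below Vehicle and TGZ was lowest. It was 3.04-fold lower with BSO+TGZ (2.29 to 4.04) and 6.01-fold lower with TGZ (4.43 to 8.16). The second probe of Slc36a1, dimmer but well above background on all arrays, pointed up in the same groups, with log2 differences of 0.31 with BSO+TGZ and 0.78 with TGZ. No direction can therefore be given for Slc36a1 as a gene. The probes sit at chr11:55049533-55049592 and chr11:55046103-55046162 (mm9) and were designed on the same transcript record. Slc36a2, PAT2, was -1.96 with BSO+TGZ, -2.42 with TGZ, -1.07 with BSO+RGZ, -1.80 with RGZ and -1.38 with Vehicle, 2.05-fold lower with TGZ alone. That difference was -0.33 on the log2 scale with another background correction. The other probes of Slc36a2 were below background on all arrays.

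In SLC1, which carries glutamate and small neutral amino acids, no member passed 2-fold with troglitazone. Slc1a5, ASCT2, the glutamine importer of proliferating cells, was dim, at -2.80 with BSO+TGZ, -2.88 with TGZ, -2.28 with BSO+RGZ, -2.92 with RGZ and -3.38 with Vehicle. The BSO+RGZ array was the highest, 2.15-fold above Vehicle (1.45 to 3.18), and this difference was 0.26 on the log2 scale with another background correction. Slc1a4, ASCT1, a serine, alanine and cysteine exchanger, had 4.55 with BSO+TGZ, 4.90 with TGZ, 4.07 with BSO+RGZ, 4.22 with RGZ and 4.47 with Vehicle. Slc1a2, GLT-1, the glutamate importer of hepatocytes around the central vein, differed by 0.39 log2 units or less. Slc1a7 differed by 0.22 units or less. Slc1a6 was above background with BSO+RGZ alone, where the bound against its own Vehicle signal, which lay just over the floor, was a log2 difference of 0.50.

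SLC43 holds facilitative carriers of large neutral amino acids, Slc43a1 (LAT3) and Slc43a2 (LAT4), and Slc43a3, which carries purine bases. None of the 3 passed 2-fold on the probe shown. Slc43a3 was 2.67 with BSO+TGZ, 2.48 with TGZ, 1.84 with BSO+RGZ, 1.85 with RGZ and 1.72 with Vehicle, 1.93-fold higher with BSO+TGZ (1.46 to 2.55). The second Slc43a3 probe passed 2-fold, at 1.24 with BSO+TGZ and 1.09 with TGZ on the log2 scale, and was below background on the rosiglitazone arrays. Slc43a1 was 0.80 with BSO+TGZ, 1.18 with TGZ, 0.24 with BSO+RGZ, 0.75 with RGZ and 0.88 with Vehicle, lowest with BSO+RGZ. On the second Slc43a1 probe Vehicle was lowest instead, with log2 differences of 0.40 with BSO+TGZ, 0.94 with TGZ, 0.38 with BSO+RGZ and 0.57 with RGZ. Slc43a2 stayed within 0.42 log2 units of Vehicle.

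Of the amino acid carriers in SLC6, the glycine transporter Slc6a9 (GlyT1) was higher with TGZ. The brain proline transporter Slc6a7 was lower in both troglitazone groups on the probe shown. Slc6a9 had a scaled log2 signal of 5.13 with BSO+TGZ, 5.62 with TGZ, 4.81 with BSO+RGZ, 4.90 with RGZ and 4.50 with Vehicle. All treated arrays were above Vehicle, by 1.55-fold with BSO+TGZ (1.17 to 2.04) and 2.18-fold with TGZ (1.65 to 2.88). Scaling to the spike-in RNAs put the TGZ difference at 0.67 on the log2 scale, under 2-fold. Slc6a7 was dim, with -3.41 with BSO+TGZ, -3.27 with TGZ, -2.50 with BSO+RGZ, -2.09 with RGZ and -2.17 with Vehicle. It was 2.38-fold lower with BSO+TGZ and 2.15-fold lower with TGZ, and only -0.30 and -0.18 on the log2 scale with another background correction. The second probe of Slc6a7, designed on the same transcript record, was below background on all arrays.

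The carriers of other solutes in SLC6 included Slc6a8 and Slc6a6 past 2-fold. Slc6a8, the creatine transporter, had 1.35 with BSO+TGZ, 1.52 with TGZ, 0.80 with BSO+RGZ, 0.56 with RGZ and 0.04 with Vehicle. Every treated array exceeded Vehicle, by 2.48-fold with BSO+TGZ (1.88 to 3.27), 2.79-fold with TGZ (2.12 to 3.69), 1.70-fold with BSO+RGZ and 1.43-fold with RGZ. Its second, dimmer probe gave larger differences in the same direction, 1.75 with BSO+TGZ, 1.92 with TGZ, 1.68 with BSO+RGZ and 1.19 with RGZ on the log2 scale, so on that probe all 4 treated groups were past 2-fold and the compounds lay closer together. Slc6a6, the taurine transporter, which loads hepatocytes with the taurine used to conjugate bile acids, was lower in both troglitazone groups on its 2 brighter probes. The scaled log2 signal of Slc6a6 was 2.41 with BSO+TGZ, 2.21 with TGZ, 2.88 with BSO+RGZ, 3.35 with RGZ and 3.54 with Vehicle. It was 2.20-fold lower with BSO+TGZ (1.67 to 2.90) and 2.52-fold lower with TGZ (1.91 to 3.33). On a second probe of Slc6a6 the log2 differences were -1.19 with BSO+TGZ, -1.06 with TGZ, -0.37 with BSO+RGZ and 0.17 with RGZ. The remaining probe, which was dim, gave 0.18 with BSO+TGZ, 0.73 with BSO+RGZ and 0.78 with RGZ, and was below background with TGZ. The probes thus differed in sign with BSO+TGZ as well as in both rosiglitazone groups, where no direction can be given for the gene as a whole.

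Slc6a12, the betaine and GABA carrier BGT1, and Slc6a13, the GABA and taurine carrier GAT2, are strongly expressed in liver. Slc6a12 was lowest with BSO+RGZ, at -0.69 log2 units from Vehicle, and the other groups lay at -0.26 with BSO+TGZ, -0.08 with TGZ and -0.45 with RGZ. Slc6a13 lay at -0.47 with BSO+TGZ, -0.52 with TGZ, -0.64 with BSO+RGZ and -0.23 with RGZ. Slc6a16, Slc6a17 and Slc6a21 were within 0.48 log2 units of Vehicle in all groups on the probes shown, and the second Slc6a21 probe gave -0.68 with TGZ. Slc6a4, the serotonin carrier of platelets and neurons, was above background with BSO+RGZ, RGZ and Vehicle and not with troglitazone. It was -3.88 with BSO+RGZ, -2.96 with RGZ and -3.84 with Vehicle, where the floors were -4.24, -4.32 and -4.16. The log2 difference from Vehicle was 0.88 with RGZ and -0.05 with BSO+RGZ.

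The 2 compound pairs, each at 300 mg/kg and 6 hr, were compared directly. Without BSO, 3 of 42 members were at least 2-fold higher with TGZ than with RGZ and 3 were lower, beside 9.20% and 8.37% of all gene names. With BSO, 4 of 44 were higher with BSO+TGZ than with BSO+RGZ and 0 lower, beside 8.29% and 5.25%. Slc7a6, Slc38a2 and Slc7a1 exceeded 2-fold in both pairs. Slc7a6 was at least 49.9-fold higher with TGZ than with RGZ and at least 43.3-fold higher with BSO+TGZ than with BSO+RGZ. Slc38a2 was 9.17-fold higher with TGZ than with RGZ (6.95 to 12.1) and 5.84-fold higher with BSO+TGZ than with BSO+RGZ (4.43 to 7.71). For Slc7a1 the folds were 5.06 (3.82 to 6.72) without BSO and 5.02 (3.78 to 6.67) with BSO. The pair with BSO added Slc7a5, 2.21-fold higher with BSO+TGZ (1.36 to 3.57), but this was a log2 difference of 0.31 with another background correction and 0.82 with spike-in scaling.

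Members lower with TGZ than with RGZ were Slc36a1, 4.59-fold on its brighter probe and higher by 1.09 log2 units on the other, Slc6a7, 2.26-fold (1.52 to 3.37) but -0.16 on the log2 scale with another background correction, and Slc6a6, 2.20-fold (1.67 to 2.90). Several members lay just short of the 2-fold mark. Slc6a8 was 1.95-fold higher with TGZ than with RGZ (1.48 to 2.57), and 1.46-fold with BSO+TGZ over BSO+RGZ (1.11 to 1.93). Slc36a1 was 1.98-fold lower with BSO+TGZ than with BSO+RGZ on its brighter probe (1.49 to 2.63), and higher by 0.81 log2 units on the other. On other probes that were well above background on all 5 arrays, 2 more members passed 2-fold between the compounds. Slc3a2 was higher by 1.56 and 1.49 log2 units with TGZ than with RGZ on its other probes, and by 1.42 and 1.08 with BSO+TGZ than with BSO+RGZ. Slc38a4 was higher by 1.254 and 1.653 on its second probe in the same pairs. Probes below background on the rosiglitazone array compared gave bounds past 2-fold for Slc43a3 and Slc38a1 too. On the log2 scale these were 1.56 and 1.62 for Slc43a3 in the same pairs. For Slc38a1 the bound was 1.07, in the pair with BSO only. The other members measured on both arrays differed between the compounds by under 2-fold on the probes shown. With 1 array per group this does not show that the compounds act alike on them. Of all 40 members measured without BSO, the interval lay above 0 for 15 and below 0 for 8, beside 4837 and 4093 of 19143 genes. With BSO it lay above 0 for 12 of 41 and below 0 for 9, beside 3924 and 3805 of 19369 genes. The members' median log2 difference was 0.13 for TGZ minus RGZ and 0.26 for BSO+TGZ minus BSO+RGZ, beside 0.09 and 0.04 for all measured genes. Scaled to the spike-in RNAs these medians were -0.42 and -0.06, while the median of all genes moved to -0.46 and -0.28.

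**Figure D4:**
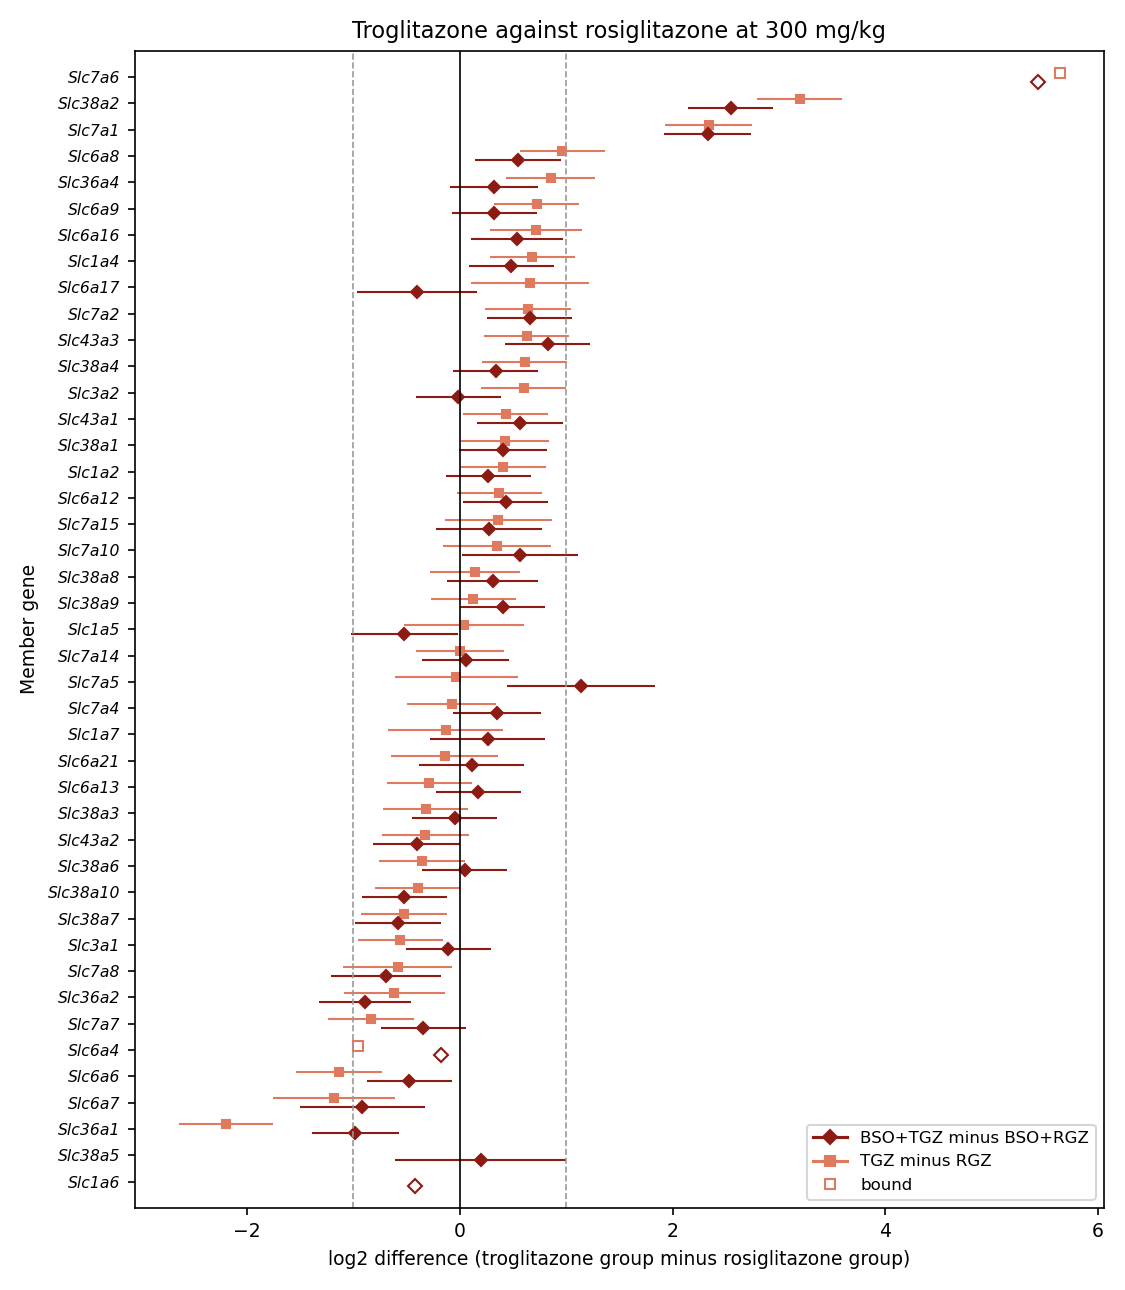
log2 difference between the compounds for the members shown, troglitazone group minus rosiglitazone group at 300 mg/kg, with (diamonds) and without (squares) BSO. Horizontal lines are 95% intervals of spot measurement error, open symbols are bounds, and dashed lines mark 2-fold. Slc7a6, Slc38a2 and Slc7a1 lie past +2 in both pairs, and Slc36a1, Slc6a7 and Slc6a6 past -1 without BSO.

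No member differed by 2-fold when BSO was added to either compound. With troglitazone, 0 of 42 members were higher and 0 lower in BSO+TGZ than in TGZ, beside 1.53% and 0.485% of all gene names. With rosiglitazone, 0 of 43 were higher and 0 lower in BSO+RGZ than in RGZ, beside 0.513% and 0.711%. Closest to the mark were the brighter Slc36a1 probe and Slc7a5. The brighter Slc36a1 probe was 1.98-fold higher with BSO+TGZ than with TGZ (1.45 to 2.70). The other Slc36a1 probe went the other way, with a log2 difference of -0.48. Slc7a5 was 1.94-fold lower with BSO+RGZ than with RGZ (1.20 to 3.12). Slc38a2 and Slc7a1 differed by less than their intervals between BSO+TGZ and TGZ, with BSO+TGZ at 5.18 and 0.98 and TGZ at 5.49 and 1.01. For Slc6a9 the troglitazone arrays differed by 1.41-fold, lower with BSO (1.07 to 1.86). The BSO effect with troglitazone minus that with rosiglitazone passed 2-fold for 3 of 40 members, or 7.5%, beside 3.18% of 18663 genes. The 3 were the brighter Slc36a1 probe at 1.22, Slc7a5 at 1.17 and Slc6a17 at -1.07 on the log2 scale. The other Slc36a1 probe gave -0.27, and the other Slc6a17 probe was below background on all arrays. The second Slc6a21 probe gave 1.00, where the probe shown gave 0.26. Each of these values rests on 4 arrays without replicates.

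The wider amino acid response was also read on these arrays. Of 21 measured genes of the amino acid and integrated stress response, 11 were at least 2-fold higher and 0 lower with BSO+TGZ, 12 and 0 with TGZ, 5 and 0 with BSO+RGZ, and 4 and 0 with RGZ, with median log2 differences of 1.16, 1.49, 0.55 and 0.48. Among all gene names, 8.28% were higher and 5.88% lower with BSO+TGZ, and 10.0% and 9.45% with TGZ. With BSO+RGZ these shares were 3.01% and 3.74%, and with RGZ 1.61% and 1.66%. Chac1, a glutathione-degrading enzyme under ATF4, had 5.16 with BSO+TGZ, 5.72 with TGZ, 3.18 with BSO+RGZ, 3.16 with RGZ and 0.66 with Vehicle. Ddit4, an inhibitor of mTORC1, had 5.92 with BSO+TGZ, 6.54 with TGZ, 2.60 with BSO+RGZ, 2.34 with RGZ and 2.48 with Vehicle. Gdf15, a stress-induced hormone, had 4.93 with BSO+TGZ, 4.80 with TGZ, 2.95 with BSO+RGZ, 2.60 with RGZ and 1.498 with Vehicle. Both rosiglitazone arrays were more than 2-fold above Vehicle for Chac1 and Gdf15, and for Ddit4 both lay within 2-fold of it. Asns, asparagine synthetase, had -0.20 with BSO+TGZ, -0.23 with TGZ, -0.57 with BSO+RGZ, -1.88 with RGZ and -2.63 with Vehicle. Unlike Slc38a2 and Slc7a1, Asns was also higher with BSO+RGZ. Other genes of the list were highest with BSO+RGZ. Fgf21, a hormone of the fasting liver, had 2.04 with BSO+TGZ, 1.66 with TGZ, 3.90 with BSO+RGZ, 2.51 with RGZ and -0.27 with Vehicle. Ddit3, the stress factor CHOP, had -1.28 with BSO+TGZ, -0.55 with TGZ, 0.62 with BSO+RGZ, 0.06 with RGZ and -1.06 with Vehicle, so that only the rosiglitazone arrays were more than 2-fold above Vehicle.

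Amino acid catabolism held 26 measured genes, of which 4 were higher and 1 lower with BSO+TGZ, 6 and 2 with TGZ, 0 and 3 with BSO+RGZ, and 0 and 2 with RGZ. The shares of all gene names were 8.28% and 5.88%, 10.0% and 9.45%, 3.01% and 3.74%, and 1.61% and 1.66% in the same order. The aspartate aminotransferase Got1 was 8.69 with BSO+TGZ, 9.17 with TGZ, 5.11 with BSO+RGZ, 4.93 with RGZ and 6.37 with Vehicle, high with troglitazone and below Vehicle with rosiglitazone. Aass, which starts lysine breakdown, was 8.31 with BSO+TGZ, 8.77 with TGZ, 6.35 with BSO+RGZ, 6.62 with RGZ and 6.66 with Vehicle. Of 20 measured genes that sense amino acids for mTORC1, 1 was higher and 1 lower with BSO+TGZ, 1 and 2 with TGZ, and 0 past 2-fold with BSO+RGZ or RGZ. This is 5% and 5% with BSO+TGZ and 5% and 10% with TGZ, near or under the shares of all gene names. The one higher was Fnip1, a partner of folliculin, at 3.32 with BSO+TGZ, 3.50 with TGZ, 2.24 with BSO+RGZ, 2.04 with RGZ and 2.01 with Vehicle. The sestrin gene Sesn3 was the one lower with BSO+TGZ, and Sesn3 and Nprl2 were lower with TGZ.

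The troglitazone arrays also carried more signal of neutrophil markers in sum, but not of each of the markers. Their summed scaled signal was 9.85 with BSO+TGZ, 10.13 with TGZ, 9.45 with BSO+RGZ, 8.63 with RGZ and 6.94 with Vehicle on the log2 scale, and the markers at least 2-fold above Vehicle were 9 of 13 with BSO+TGZ, 8 of 13 with TGZ, 5 of 12 with BSO+RGZ and 5 of 11 with RGZ. Lcn2, which hepatocytes also make in the acute phase, had 9.37 with BSO+TGZ, 9.74 with TGZ, 9.16 with BSO+RGZ, 8.10 with RGZ and 3.27 with Vehicle, the largest share of the sum in every treated group. Ngp, Cxcr2 and Mmp9 were not well above background with Vehicle. Ly6g and Elane went the other way, below Vehicle in every treated group. Ly6g was -0.30 with BSO+TGZ, -0.55 with TGZ and 0.15 with Vehicle, and Elane 1.14, 1.42 and 1.52. For macrophage and Kupffer cell markers 1 of 12 was past 2-fold in each group. Of 10 sinusoidal endothelial markers, 2 were at least 2-fold higher and 2 lower with BSO+TGZ, 2 and 5 with TGZ, 1 and 0 with BSO+RGZ, and 1 and 0 with RGZ. Their summed scaled signal was 5.98 with BSO+TGZ, 5.56 with TGZ, 5.98 with BSO+RGZ, 6.08 with RGZ and 6.20 with Vehicle on the log2 scale. Of 10 markers of hepatocytes around the central vein, 0 were higher and 3 lower with BSO+TGZ, 0 and 4 with TGZ, 0 and 0 with BSO+RGZ, and 1 and 0 with RGZ. Their sum was 10.58 with BSO+TGZ, 10.77 with TGZ, 10.15 with BSO+RGZ, 10.34 with RGZ and 10.55 with Vehicle. Cyp2e1 held the largest share of this sum on every array, at 10.33 with TGZ and 10.00 with Vehicle. The 4 lower with TGZ were the Wnt target genes Axin2, Lgr5 and Tbx3 and the bile acid enzyme gene Cyp7a1. Of 10 markers of hepatocytes around the portal vein, 0 were higher and 1 lower with BSO+TGZ, and 1 and 2 with TGZ. With BSO+RGZ and with RGZ, 0 were higher and 1 lower. Sds was the one higher with TGZ, and Hal and Aldh1b1 the 2 lower. In the order BSO+TGZ, TGZ, BSO+RGZ and RGZ, 3, 2, 0 and 0 of 6 erythroid markers were higher and 0, 0, 0 and 1 lower. Their median log2 differences were 0.75, 0.48, -0.72 and -0.76. Of 7 T, B and NK cell markers 0 were higher, and 2, 2, 1 and 0 lower. Of 10 stellate cell and fibroblast markers 0 were higher, and 1, 1, 2 and 1 lower. Of 5 bile duct markers, or 6 with RGZ, 1, 1, 0 and 0 were higher and 0, 0, 1 and 1 lower. Beside these marker counts, 8.28% of all gene names were higher and 5.88% lower with BSO+TGZ, and 10.0% and 9.45% with TGZ. With BSO+RGZ the shares were 3.01% and 3.74%, and with RGZ 1.61% and 1.66%. The part of other cells in the transporter values was not tested.

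Promoter windows of 42 members were read from RefSeq (GRCm38.p6), 250 bases before to 50 after the start. Those of Slc7a6, Slc38a2 and Slc7a1 are shown because these genes had the largest differences between compounds, and those of Slc1a4 and Slc7a7 because they hold the core of the C/EBP-ATF response element, TGATGNAA, printed in capitals. Where a gene has several windows, the one farthest upstream is shown. They are chr8:106168604-106168903 (+ strand), chr15:96699679-96699978 (- strand), chr5:148399855-148400154 (- strand), chr11:20332664-20332963 (- strand) and chr14:54417895-54418194 (- strand) in that order.
Slc7a6: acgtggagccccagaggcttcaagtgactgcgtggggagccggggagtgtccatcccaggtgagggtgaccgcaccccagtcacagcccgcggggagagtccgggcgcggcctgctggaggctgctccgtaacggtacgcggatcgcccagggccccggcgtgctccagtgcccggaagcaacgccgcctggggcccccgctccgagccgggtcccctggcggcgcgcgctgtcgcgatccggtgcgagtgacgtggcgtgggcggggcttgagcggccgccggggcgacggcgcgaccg
Slc38a2: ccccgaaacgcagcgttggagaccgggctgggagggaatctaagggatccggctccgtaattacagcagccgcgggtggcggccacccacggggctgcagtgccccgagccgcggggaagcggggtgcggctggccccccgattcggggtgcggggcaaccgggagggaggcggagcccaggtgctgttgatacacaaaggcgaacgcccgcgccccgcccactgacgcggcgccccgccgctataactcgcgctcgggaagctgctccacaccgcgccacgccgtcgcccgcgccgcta
Slc7a1: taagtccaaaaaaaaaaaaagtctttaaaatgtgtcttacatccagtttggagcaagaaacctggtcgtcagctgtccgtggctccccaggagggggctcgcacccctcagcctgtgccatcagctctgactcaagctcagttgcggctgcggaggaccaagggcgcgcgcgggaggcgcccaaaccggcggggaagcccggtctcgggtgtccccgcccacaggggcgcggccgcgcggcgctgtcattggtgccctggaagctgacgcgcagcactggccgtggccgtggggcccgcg
Slc1a4: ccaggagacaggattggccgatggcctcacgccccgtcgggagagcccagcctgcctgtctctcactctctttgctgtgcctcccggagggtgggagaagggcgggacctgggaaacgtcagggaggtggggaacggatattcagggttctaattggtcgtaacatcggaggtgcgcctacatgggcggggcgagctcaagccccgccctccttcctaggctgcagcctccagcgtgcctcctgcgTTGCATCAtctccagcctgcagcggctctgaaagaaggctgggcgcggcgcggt
Slc7a7: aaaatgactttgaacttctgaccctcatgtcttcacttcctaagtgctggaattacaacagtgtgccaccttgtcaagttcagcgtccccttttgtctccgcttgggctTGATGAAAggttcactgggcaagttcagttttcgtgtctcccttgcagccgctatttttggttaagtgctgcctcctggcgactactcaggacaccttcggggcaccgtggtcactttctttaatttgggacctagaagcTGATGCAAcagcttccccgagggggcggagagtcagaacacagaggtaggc
The letters TGATGNAA, searched on both strands, were in a window of 3 members of 42 (7.14%), Slc1a4, Slc6a21 and Slc7a7, beside 1219 of 27025 genes with a window (4.51%). The site of Slc1a4 reads TGATGCAA on the reverse of the printed strand, 4 bases before the start. The sites of Slc7a7 read TGATGAAA and TGATGCAA, 141 and 1 bases before the transcription start within that window. None of the 5 members at least 2-fold higher with TGZ that have a window held it, Slc7a6, Slc38a2, Slc7a1, Slc36a4 and Slc6a9, and these letters were not in the window of Slc36a1. Slc1a4 and Slc7a7, which hold it, were 0.43 and -0.72 log2 units from Vehicle with TGZ. A match is a description of letters in a window and says nothing on whether the factor binds. Sites outside the 300 bases of a window, such as farther into the gene, were not searched for. An absence here therefore does not show that a gene lacks the element.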

How the data were processed

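Gene expression was measured in 5 liver RNA pools, 1 per group, on single-colour Agilent arrays on 1 slide. The deposited scanner files hold an intensity per spot that is not scaled between arrays. Per the file headers, version 12.0.3.1 of Agilent's Feature Extraction software subtracted the background from each intensity and removed spatial trends. The deposited value table holds log2 values that differ from the log2 processed signal by 1 constant per array. Its column medians were 4.08 for BSO+TGZ, 4.02 for TGZ, 3.92 for BSO+RGZ, 4.01 for RGZ and 4.03 for Vehicle, so it is scaled between arrays and not centred per gene. What software made it was not given in the sources used here.

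Spots of a probe were averaged without those flagged as outliers, log2-transformed and scaled by subtracting the array's 75th percentile, computed without control probes. Each gene was read from its brightest probe by the mean of the 5 arrays. A gene well above background on 1 of the 2 arrays compared was given as a bound against the dim array's floor, meaning the dimmest signal still called well above background on it, or the gene's own signal there where that was higher. A gene whose other probe passed background on the dim array got no bound. Intervals combine the error the software gives for either spot, whose median SD was 0.146 per array on the log2 scale. With 1 array per group nothing was tested, and precision is limited by having so few arrays. Every member well above background could be named, members past 2-fold first, then those farthest from 0 in their class. The members, gene lists and alternatives were chosen with earlier results of these data known. The calculation was tested on simulated data. The values of 1 member, which is part of the counts, are not reported here. Probe coordinates are mm9 from the files and promoter windows are GRCm38.p6, and the 2 builds were not mixed. Whether a probe lies in an exon or an untranslated region was not analysed here. The names of the compounds behind the labels' abbreviations come from the title and general knowledge. Python 3.11.15, numpy 2.4.6, pandas 2.3.3, matplotlib 3.10.9 and R 4.3.3 with limma 3.58.1 (background correction only) were used.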

Additional observations from a re-analysis of the deposited data

How the results depend on the processing

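Each choice was changed in turn: the background correction (normexp with offset 50), the scaling (array median, or 8 spike-in RNAs), the filter on dim probes, the probe of a gene (mean over probes) and the deposited table, which gave the same counts and medians. Spike-in scaling moved the median of all genes by -0.46 (TGZ), -0.19 (BSO+TGZ) and 0.13 (BSO+RGZ) against Vehicle. With normexp, 0 of 43 members were at least 2-fold higher with BSO+RGZ and 0 of 41 with RGZ, beside 279 of 21177 and 135 of 21327 gene names. Lower with TGZ were 2 of 42, beside 904 of 21276. The members' median was -0.052 for BSO+RGZ minus RGZ, -0.060 for RGZ and 0.23 for TGZ minus RGZ. With the median, 3 of 44 members were lower with BSO+TGZ than BSO+RGZ, beside 1653 of 21336 gene names. The members' median was then -0.057 for BSO+RGZ minus RGZ, -0.0047 for BSO+RGZ and 0.11 for BSO+TGZ minus BSO+RGZ. With spike-in RNAs, 7 of 42 were lower with TGZ, beside 4269 of 21276 gene names, and 9 of 42 with TGZ than RGZ, beside 4618 of 21479. Lower with BSO+TGZ than BSO+RGZ were 4 of 44, beside 2405 of 21336. Higher with BSO+TGZ than TGZ was 1 of 42, beside 683 of 20827. The members' medians were then -0.18 (BSO+TGZ), -0.27 (TGZ), 0.021 (BSO+RGZ) and 0.12 (RGZ), and -0.42, -0.057 and 0.18 for TGZ minus RGZ, BSO+TGZ minus BSO+RGZ and BSO+TGZ minus TGZ. Without the filter, of 60 members 5 were higher with TGZ than RGZ and 2 with BSO+RGZ than RGZ. Gene names higher there were 3748 and 1125 of 36866. Members lower were 2 with BSO+RGZ, 1 with RGZ, 3 with BSO+TGZ than BSO+RGZ, 2 with BSO+TGZ than TGZ and 1 with BSO+RGZ than RGZ. Gene names lower were 2337, 1635, 2070, 1260 and 1353 in the same order. The members' medians were -0.17 (RGZ), 0.42 (TGZ minus RGZ) and -0.018 (BSO+RGZ minus RGZ). Without the filter the added genes are near background. With the mean over probes, 5 of 42 were higher with TGZ than RGZ and 1 lower, beside 1812 and 1578 of 21531 gene names. Against Vehicle, 1 of 43 was lower with BSO+TGZ, 0 of 42 with TGZ and 1 of 43 with BSO+RGZ. Gene names lower there were 1146 of 21454, 1748 of 21338 and 692 of 21225. The members' medians were -0.19 (BSO+RGZ), -0.075 (RGZ) and 0.35 (TGZ minus RGZ). In a choice added after seeing the data, another probe turned Slc36a1 to 0.31 (BSO+TGZ), 0.78 (TGZ) and 1.09 (TGZ minus RGZ), and Slc6a6 to 0.18 (BSO+TGZ). Where no cause is named, the cause was not tested. Slc7a6, Slc38a2 and Slc7a1 stayed past 2-fold in both troglitazone groups and both compound pairs under all of these except the dimmer Slc38a2 probe and, against Vehicle with TGZ, the dimmer Slc7a6 probe, with a bound of 0.96. No paired analysis was possible because each group is 1 array, and for the same reason no replicate could be left out. Signals near background limit Slc1a5, Slc7a5, Slc6a7, Slc6a17, Slc36a2 and Slc36a4.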
